A study of Homo sapiens with 9 samples.

Results

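IGF2, its receptors IGF1R and IGF2R and the IGF-binding proteins IGFBP2 to IGFBP7 were examined in HMEC-1, an established immortalised line of human dermal microvascular endothelial cells exposed to trimethylamine N-oxide (TMAO). The genes were taken by symbol from the table of estimated counts, where they made up 9 of 29740 genes, and all 9 were among the 14740 genes with enough counts to be tested. The study asked how the transcriptome of these cells differed after 24H and 48H with TMAO, a metabolite that gut bacteria and the liver produce from dietary choline and carnitine. Bulk RNA was sequenced in 3 groups of 3 libraries each, namely untreated cells (CTRL), cells given 50 µM TMAO for 24H (TMAO 24H) and cells given 50 µM TMAO for 48H (TMAO 48H). According to the study's methods, TMAO was given in low-serum medium. Its results state that controls of both times were pooled, because their reactive oxygen species and cell viability were comparable (data not shown there). How long each CTRL library was cultured is not known, so a difference from CTRL cannot be told apart from one of time in culture, and the methods do not say whether CTRL cells had the same medium. The study's statistical methods speak of independent experiments, but neither the labels nor the sequencing methods say whether the 3 libraries of a group came from separate cultures, so the p-values measure the spread between these libraries, which may be technical.

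Insulin-like growth factors (IGFs) are small secreted hormones related to insulin. They signal through IGF1R, a tyrosine kinase at the cell surface that feeds the PI3K-AKT and MAPK cascades, while IGF2R carries IGF2 to lysosomes for degradation and sorts enzymes tagged with mannose 6-phosphate. IGF-binding proteins are secreted carriers that hold IGFs outside the cell, where they prolong the life of the hormone and can keep it from its receptor. Proteases that cut the binding proteins release IGF again, and several binding proteins also act on integrins, matrix or other surface proteins without IGF. In blood vessels, endothelial cells secrete several of them, among them IGFBP7, which is deposited in vascular basement membrane.

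Total counts per library ranged from 29160868 to 30069548 in CTRL, from 32179428 to 36927373 at 24H and from 25205756 to 32563494 at 48H. Ribosomal RNA, counted over 6 genes, took 31.5% of TMAO 24H replicate 1 and between 1.64% and 7.46% of every other library. Levels are given as normalised counts, that is, counts scaled to a library of average size by the TMM method of edgeR, with the SD over the 3 libraries of a group. A gene passed when its adjusted p in edgeR's quasi-likelihood test with Benjamini-Hochberg adjustment over all 14740 genes was under 0.05. In bulk RNA, fewer cells of a type and less RNA per cell cannot be told apart.

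The endothelial label was checked against 14 markers, all of which were detected in all 9 libraries, with CDH5 (VE-cadherin, the adhesion protein of endothelial junctions) the most abundant. Their summed normalised counts were 103724, 103169 and 93462 in CTRL, 96852, 93010 and 98821 at 24H, and 82497, 83403 and 89744 at 48H. The 3 sums at 48H lay below all others. The median log2 fold change of the markers at 48H against CTRL was -0.21, beside 0.004 over all tested genes. Of the 14 markers, 8 passed as lower than in CTRL, beside 5.29% of all tested genes. That count was 4 without CTRL replicate 1, 3 without CTRL replicate 2, 5 without TMAO 48H replicate 1 and 3 without TMAO 48H replicate 2. Among 8 epithelial and leukocyte markers, the leukocyte genes PTPRC and CD3E had at most 3 counts in any library, the monocyte gene CD14 had 21 to 44, and keratin genes were present at higher levels. KRT14, a keratin of basal epithelium, stood at 681, 763 and 1067 normalised counts in CTRL, at 612, 552 and 711 at 24H, and at 1021, 801 and 67.9 at 48H. The drop was limited to 1 library, TMAO 48H replicate 3, which was also lowest for KRT5 (125 against 763 to 1630 elsewhere), EPCAM (38 against 202 to 290) and CDH1 (34.5 against 84.6 to 156). These 4 genes were singled out after their values were seen, and the counts of passing genes at 48H are given below with and without that library.

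The order of levels was compared per kb, as normalised counts divided by the length of the longest coding transcript in GENCODE release 29. In CTRL, IGFBP7 was highest at 9078 ± 466 normalised counts per kb (SD, n = 3), followed by IGFBP4 at 6436 ± 288, IGFBP6 at 1940 ± 111, IGFBP2 at 1268 ± 86.4 and IGFBP5 at 1033 ± 106. The receptors and IGFBP3 were lower, with IGF2R at 668 ± 66.3, IGFBP3 at 299 ± 12.9 and IGF1R at 202 ± 10.4 normalised counts per kb, and IGF2 was last at 2.47 ± 2.33. Each CTRL library held this order, since no neighbouring pair of genes overlapped in its 3 libraries. The same order of means was found at 24H and 48H. Neighbours were closer there, because IGFBP2 (957 to 1109 per kb) overlapped IGFBP5 (916 to 978) at 24H and IGFBP6 (1321 to 1593) overlapped IGFBP2 (1195 to 1364) at 48H. With the median transcript length in place of the longest, IGFBP2 stood above IGFBP6 at 48H, at 2311 against 1801 normalised counts per kb.

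IGF2, the ligand of the family and a growth factor best known from fetal tissue, was close to the limit of detection. The libraries held 16, 26 and 0 estimated counts of IGF2 in CTRL, 23, 24 and 16 at 24H, and 6, 9 and 10 at 48H. The 0 belonged to CTRL replicate 3, which listed 23 counts under INS-IGF2, a read-through transcript that overlaps IGF2, while the other 8 libraries listed 0 there. The split of reads between these overlapping genes is therefore uncertain, and IGF2 alone gave no call, with log2 fold changes against CTRL of 0.56 ± 0.64 after 24H (SE, edgeR adjusted p = 0.922) and -0.65 ± 0.72 after 48H (adjusted p = 0.62).

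**Figure D1:**
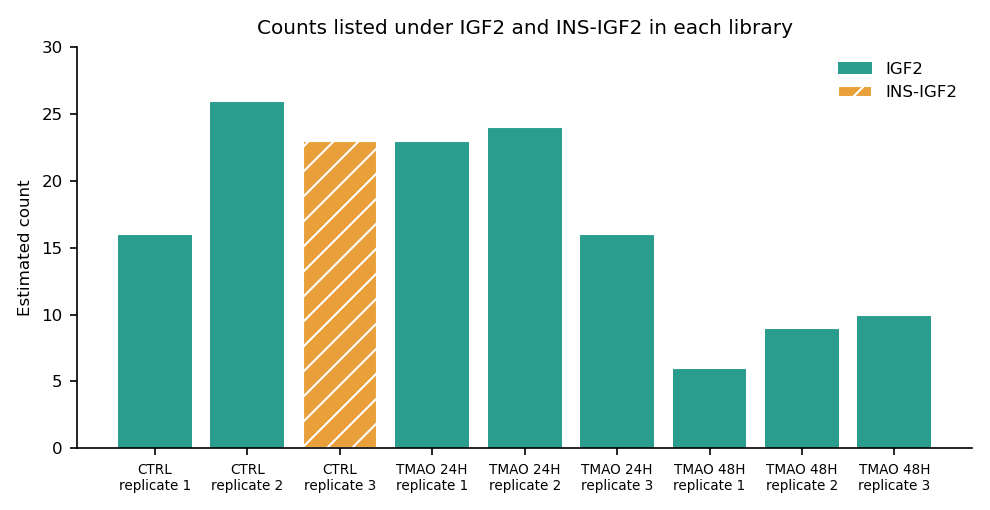
Estimated counts listed under IGF2 (plain bars) and under the overlapping INS-IGF2 (hatched bar) in each of the 9 libraries, with the count on the vertical axis. CTRL replicate 3 is the only library with counts under INS-IGF2 (23), and the 3 libraries at 48H have the lowest bars (6, 9 and 10).

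With the counts of both symbols added, a step chosen after the split was seen, normalised counts were 15.6, 25.9 and 23.2 in CTRL, 25.8, 21.8 and 14.3 at 24H, and 6.98, 7.93 and 11.5 at 48H. All 3 libraries at 48H then lay below the other 6. The sum was 0.41-fold that of CTRL at 48H (log2 fold change -1.29 ± 0.37, SE, edgeR adjusted p = 0.0446), while the change at 24H was -0.07 ± 0.33 (adjusted p = 0.987). The call at 48H rested on few counts: without 1 library at a time its adjusted p ranged from 0.0393 to 0.147 and was above 0.05 in 4 of 6 fits, namely without CTRL replicate 2 (0.147), CTRL replicate 3 (0.0964), TMAO 48H replicate 1 (0.102) or TMAO 48H replicate 2 (0.143). It also missed the threshold with the correction for GC content and length (adjusted p = 0.0571) or with the replicate number as a block (0.0876). IGF1, the other ligand, had at most 1 count in a library and INS, the insulin gene, 0 in all 9, which is under the floor of 3 counts used here. The imprinted neighbour H19, a non-coding RNA, had 74 counts in TMAO 24H replicate 1 and 0 in the other 8 libraries.

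The receptors moved little between the groups. IGF1R stood at 2617, 2382 and 2411 normalised counts in CTRL, at 2432, 2388 and 2313 at 24H, and at 2321, 2459 and 2584 at 48H. IGF2R stood at 10358, 9288 and 8502 in CTRL, at 9028, 9142 and 9370 at 24H, and at 8675, 9975 and 9663 at 48H. The 3 groups overlapped for both genes, and the spread of IGF2R within CTRL was wider than the distance between group means. Against CTRL, log2 fold changes of IGF1R were -0.05 at 24H (edgeR adjusted p = 0.898) and -0.01 ± 0.05 at 48H (SE, adjusted p = 0.937), and those of IGF2R were -0.03 (adjusted p = 0.968) and 0.01 ± 0.07 (adjusted p = 0.956). INSR, the insulin receptor, which can pair with IGF1R in a hybrid receptor, had 715 ± 24.1, 728 ± 19.9 and 754 ± 9.07 normalised counts in CTRL, TMAO 24H and TMAO 48H (SD, n = 3), and also did not pass at either time.

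**Figure D2:**
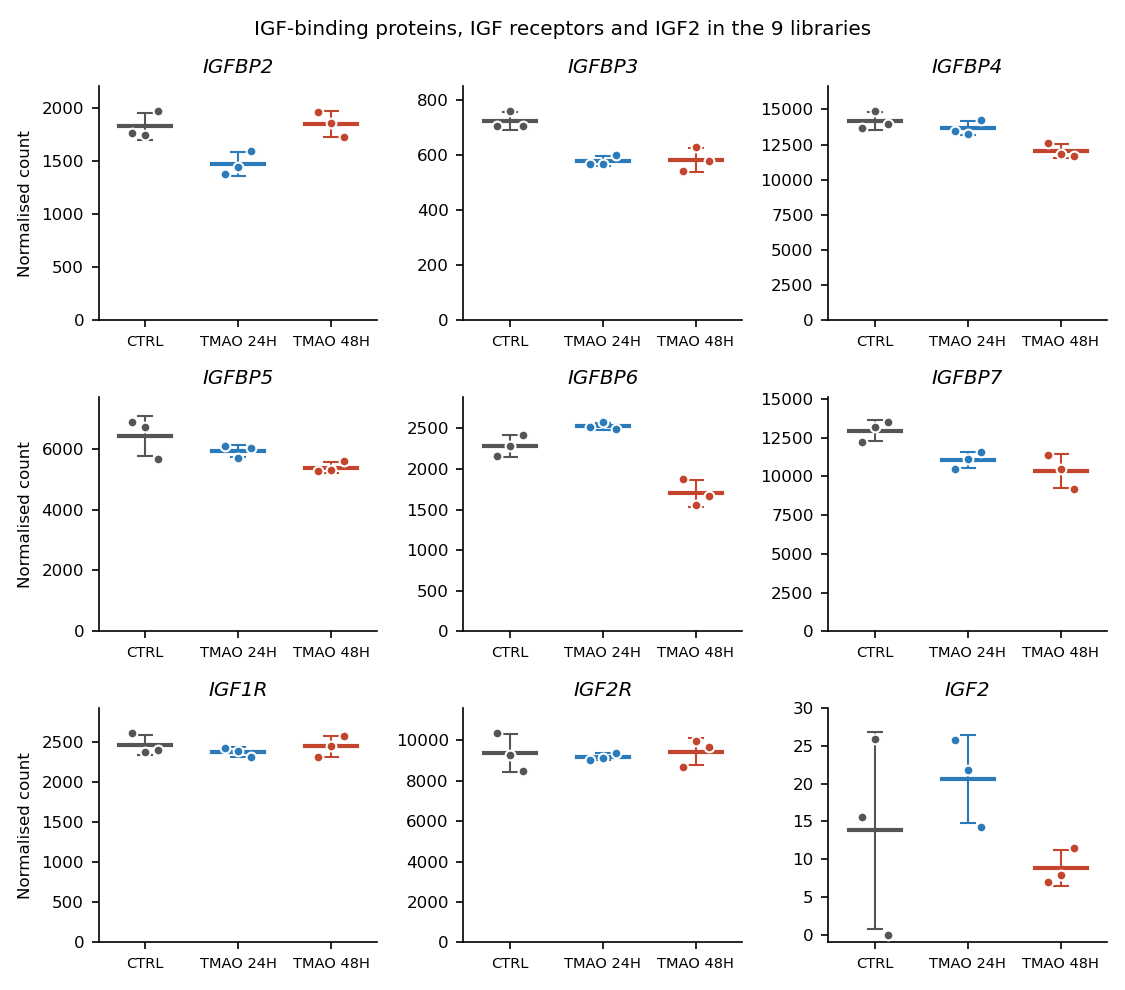
Normalised counts of the 9 genes, 1 panel per gene and 1 point per library, in CTRL, TMAO 24H and TMAO 48H, with a bar at the mean and whiskers of 1 SD over 3 libraries. IGFBP3, IGFBP4, IGFBP5, IGFBP6 and IGFBP7 have all 3 libraries at 48H below all 3 of CTRL, whereas the groups of IGF1R and IGF2R overlap.

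In edgeR, the members that passed against CTRL by their own counts were all binding proteins, with 5 at 48H and 0 at 24H. Of these, IGFBP4 and IGFBP6 also passed as lower at 48H than at 24H. IGFBP3, IGFBP5 and IGFBP7 did not pass between the time-points. IGFBP3, IGFBP4, IGFBP5 and IGFBP6 passed as lower than CTRL at 48H and had a promoter sequence available, so their promoters are shown. Each is the 250 bases before the annotated start from RefSeq (GRCh38.p14), 5′ to 3′ on the gene's strand. In that order they lie at chr7:45921273-45921522 (minus strand), chr17:40443200-40443449 (plus), chr2:216695550-216695799 (minus) and chr12:53097417-53097666 (plus). Capitals mark matches, on either strand, to 5 motifs. The box bound by TATA-binding protein was searched as TATAAA and the GC box of SP1 as GGGCGG. The box bound by NF-Y was searched as CCAAT. For AP-1 the letters were TGANTCA, and for the forkhead motif, which FOXO factors read, they were GTAAACA.
IGFBP3: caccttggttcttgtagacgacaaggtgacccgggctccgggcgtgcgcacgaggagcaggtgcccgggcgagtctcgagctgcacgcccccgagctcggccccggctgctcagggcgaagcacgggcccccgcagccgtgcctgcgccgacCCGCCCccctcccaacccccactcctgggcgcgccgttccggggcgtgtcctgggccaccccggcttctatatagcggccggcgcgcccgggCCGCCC
IGFBP4: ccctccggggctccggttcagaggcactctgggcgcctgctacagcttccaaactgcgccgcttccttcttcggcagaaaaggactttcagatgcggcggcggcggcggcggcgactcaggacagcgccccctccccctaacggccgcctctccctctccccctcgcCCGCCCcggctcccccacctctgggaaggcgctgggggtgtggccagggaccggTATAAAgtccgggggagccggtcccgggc
IGFBP5: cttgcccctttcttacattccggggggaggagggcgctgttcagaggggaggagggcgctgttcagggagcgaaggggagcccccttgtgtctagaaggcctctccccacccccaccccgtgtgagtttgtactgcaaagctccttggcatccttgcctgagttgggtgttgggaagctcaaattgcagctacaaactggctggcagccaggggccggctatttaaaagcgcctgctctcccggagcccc
IGFBP6: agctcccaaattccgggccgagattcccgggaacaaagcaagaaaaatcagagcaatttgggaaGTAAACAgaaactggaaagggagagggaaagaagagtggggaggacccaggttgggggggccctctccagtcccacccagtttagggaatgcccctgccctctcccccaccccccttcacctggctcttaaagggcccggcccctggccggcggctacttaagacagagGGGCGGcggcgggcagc

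The 4 windows had no motif of the 5 in common. IGFBP3 held 2 GC boxes, at 98 to 93 and 6 to 1 bases before the start, and IGFBP4 held 1 GC box and a TATA box at 29 to 24 bases before the start. IGFBP6 held a GC box at 17 to 12 bases and the forkhead letters at 186 to 180 bases before the start, and no match was found in the window of IGFBP5. GC content was 76% for IGFBP3, 71.6% for IGFBP4 and 61.2% for both IGFBP5 and IGFBP6. Of 35116 promoter windows of the same length, 42.6% held a GC box, 32% a CCAAT box, 10.7% a TATA box, 6.57% the AP-1 motif and 2.98% the forkhead motif, so the GC box is common and these matches are descriptions only. The sequences matched 7 of the 9 genes, with IGFBP7 and IGF2 not among them. Among the genes not shown, which did not pass against CTRL, IGF2R held 6 GC boxes and IGF1R 2. Each window of IGFBP2 held a GC box or a CCAAT box.

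At 24H, 0 of the 9 genes passed against CTRL, where 0.095% of all tested genes passed. At an unadjusted p under 0.05 in edgeR there were 4, of which IGFBP2, IGFBP3 and IGFBP7 were lower and IGFBP6 was higher, against 4.47% lower and 2.77% higher of all tested genes. These 4 were also the members whose TMAO 24H and CTRL libraries did not overlap, which held for 7.52% of all tested genes in the lower direction and 6.73% in the higher. DESeq2, the tool of the study, passed 2 of them, IGFBP2 (adjusted p = 0.014) and IGFBP3 (adjusted p = 0.049), among 55 genes that it passed in all at 24H. The median log2 fold change of the 9 genes was -0.055, beside -0.0004 over all tested genes.

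IGFBP2, a carrier that can also bind integrins and cell-surface proteoglycans, had 1759, 1746 and 1968 normalised counts in CTRL, 1377, 1440 and 1596 at 24H, and 1963, 1854 and 1720 at 48H. Its 3 libraries at 24H lay below all the others, and the 48H libraries overlapped those of CTRL. The log2 fold change was -0.31 ± 0.07 at 24H (SE, edgeR adjusted p = 0.168) and 0.02 ± 0.07 at 48H (adjusted p = 0.909). Between the time-points IGFBP2 was 1.25-fold higher at 48H than at 24H (log2 fold change 0.33 ± 0.07, edgeR adjusted p = 0.00939). Without TMAO 24H replicate 1, the library rich in ribosomal RNA, the edgeR adjusted p of that difference was 0.0505. The difference passed when the ribosomal RNA genes were removed from all libraries, a step that kept TMAO 24H replicate 1 in the fit.

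At 48H, 5 of the 9 genes passed against CTRL, all of them lower and all of them binding proteins: IGFBP3, IGFBP4, IGFBP5, IGFBP6 and IGFBP7. Among all tested genes 5.29% passed as lower and 5.14% as higher. In each of these 5 genes the 3 libraries at 48H lay below the 3 of CTRL, which held for 13% of tested genes in that direction. The changes were modest, in that IGFBP4 fell by 14.9% and IGFBP6 fell by 25.6%, with the other 3 in between, and 0 of the 5 reached the 1.4-fold change of the study's methods, as 1.8% of tested genes did. A lower threshold that the study's supplement names, 0.4 on the log2 scale, was reached by IGFBP6 and by 2.54% of tested genes. IGFBP6 was short of it without CTRL replicate 3 (-0.39), without TMAO 48H replicate 2 (-0.36) and under the correction for GC content and length (-0.32). The median log2 fold change was -0.256 over the 9 genes and -0.283 over the 6 binding proteins, beside 0.004 over all tested genes. All 5 passed without TMAO 48H replicate 3, the library low in KRT5 and KRT14, but without CTRL replicate 2 only IGFBP6 and IGFBP7 passed.

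**Figure D3:**
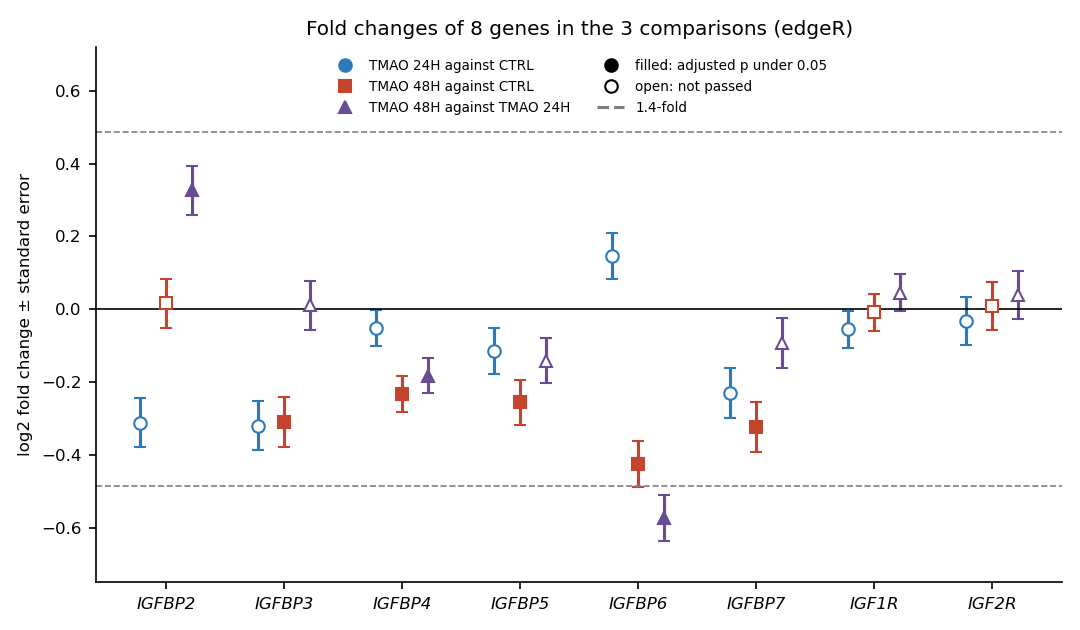
Log2 fold changes with their standard errors (vertical axis) for the 6 binding proteins and 2 receptors in the 3 comparisons, filled where the edgeR adjusted p was under 0.05, with dashed lines at a 1.4-fold change. At 48H against CTRL (squares), 5 binding proteins are filled and below 0, IGFBP2 and the receptors lie near 0, and IGFBP6 at 48H against 24H is the only filled symbol beyond a dashed line.

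IGFBP6, which prefers IGF2 to IGF1, had the largest difference among these 5 genes. It stood at 2156, 2278 and 2417 normalised counts in CTRL, at 2516, 2578 and 2492 at 24H, and at 1875, 1554 and 1670 at 48H. The 3 groups did not overlap, with 24H highest and 48H lowest. At 48H IGFBP6 fell to 0.744-fold of CTRL (log2 fold change -0.43 ± 0.06, SE, edgeR adjusted p = 0.00117), and the higher level at 24H did not pass (0.15 ± 0.06, adjusted p = 0.67). It was the member with the firmest call, with an adjusted p of at most 0.00773 when any 1 library was left out.

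IGFBP7, a low-affinity IGF carrier of vascular basement membrane and a ligand of the endothelial receptor CD93, had 12212, 13156 and 13496 normalised counts in CTRL, 10496, 11092 and 11582 at 24H, and 11391, 10499 and 9199 at 48H. Both treated groups lay below CTRL and overlapped each other. At 48H it was 0.8-fold of CTRL (log2 fold change -0.32 ± 0.07, SE, edgeR adjusted p = 0.0104), and at 24H the log2 fold change was -0.23 ± 0.07 (adjusted p = 0.493).

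IGFBP3, the main IGF carrier of serum, followed a like course at a much lower level. It had 704, 758 and 703 normalised counts in CTRL, 568, 567 and 599 at 24H, and 542, 627 and 576 at 48H. Again both treated groups lay below CTRL and overlapped each other, with log2 fold changes of -0.32 ± 0.07 at 24H (SE, edgeR adjusted p = 0.144) and -0.31 ± 0.07 at 48H (adjusted p = 0.0117). The size was the same at both times and only the adjusted p differed, with a difference between the time-points of 0.01 ± 0.07 on the log2 scale. Its call at 48H was lost without CTRL replicate 2 (adjusted p = 0.0606).

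IGFBP4, which holds IGF until the protease PAPPA cuts it, had 13673, 14875 and 13927 normalised counts in CTRL, 13475, 13262 and 14249 at 24H, and 12623, 11840 and 11668 at 48H. The 24H libraries overlapped CTRL, and the 48H libraries lay below both groups. At 48H it fell by 14.9% from CTRL (log2 fold change -0.23 ± 0.05, SE, edgeR adjusted p = 0.00932). That call was lost without CTRL replicate 2 (adjusted p = 0.0502) and under the correction for GC content and length, where the log2 fold change was -0.14 (adjusted p = 0.052).

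IGFBP5, which binds extracellular matrix, had 6870, 6719 and 5663 normalised counts in CTRL, 6076, 5693 and 6014 at 24H, and 5251, 5288 and 5587 at 48H. The lowest CTRL library lay just above the highest library at 48H, and below all 3 at 24H. Its log2 fold change was -0.11 ± 0.06 at 24H (SE, edgeR adjusted p = 0.763) and -0.26 ± 0.06 at 48H (adjusted p = 0.0207). The call at 48H was the least stable of the 5, lost without CTRL replicate 1, CTRL replicate 2 or TMAO 48H replicate 2 (highest adjusted p 0.0942) and with the replicate number as a block (adjusted p = 0.0556).

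Summed over IGFBP2 to IGFBP7, normalised counts were 37374, 39531 and 38174 in CTRL, 34508, 34631 and 36533 at 24H, and 33645, 31661 and 30419 at 48H. The 3 groups did not overlap in this sum, which is given without a test. IGFBP4 made up 36.5% to 39% of it and IGFBP7 30.2% to 35.4% over the 9 libraries, so these genes set most of the sum. IGFBP1, a carrier mainly of liver and decidua, had at most 4 counts in a library and was not tested. IGFALS, the acid-labile subunit that joins IGFBP3 and IGF in serum, had 4, 7 and 8 counts in CTRL, 11, 6 and 6 at 24H, and 0, 2 and 2 at 48H, too few for a test.

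Between the time-points, 3 of the 9 genes passed at 48H against 24H, where 7.53% of all tested genes passed, 3.77% in each direction. IGFBP2 was higher, as given above, and IGFBP6 and IGFBP4 were lower. The difference of IGFBP6 was 0.672-fold (log2 fold change -0.57 ± 0.06, SE, edgeR adjusted p = 9.26e-05) and was the only one of the 3 beyond a 1.4-fold change, as it was for 1.71% of tested genes. IGFBP4 was 0.882-fold (log2 fold change -0.18 ± 0.05, adjusted p = 0.038), but it missed the threshold in 5 of 6 fits that left out 1 library (highest adjusted p 0.167). Without TMAO 24H replicate 1 only IGFBP6 passed, and without TMAO 48H replicate 3 IGFBP2 and IGFBP6 did. The remaining binding proteins did not pass, with log2 differences of 0.01 for IGFBP3, -0.14 for IGFBP5 and -0.09 for IGFBP7, and neither did the receptors.

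For each binding protein that passed in any comparison, the genes with the most similar course over the 9 libraries were sought among 12328 genes, by Pearson's r of log2 normalised counts, which share library and depth. IGFBP6 was most like TSTA3 (r = 0.99), FHL2 (0.986) and TUBB3 (0.97). IGFBP5 was most like DIRAS3 (r = 0.988), CDH5 (0.973) and PIGG (0.967), so that an endothelial marker was among its nearest genes. IGFBP7 was most like FAM89B (r = 0.975), STUB1 (0.969) and CTSZ (0.945), and IGFBP4 was most like ZNF503 (0.973) and TUFM (0.961). IGFBP2 was most like THEM6 (r = 0.971), SMAD6 (0.967) and DUSP8 (0.95), and IGFBP3 was most like IDUA (0.955), SIX2 (0.949) and TRIOBP (0.947). No gene was named for more than 1 binding protein.

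Genes that act on the binding proteins were then described from lists, to be read beside the 10.4% of all tested genes that passed at 48H, the 0.095% that passed at 24H and a median log2 fold change over all tested genes of 0.004 at 48H. The counts at 48H against CTRL were also taken without TMAO 48H replicate 3, the library low in KRT5 and KRT14. They were 9 lower for the proteases, 4 lower for the surface partners, and 2 lower and 1 higher for the IGFBP-domain relatives. For the signalling genes they were 4 lower and 2 higher, for the FOXO-induced genes 4 higher, and for the sorting genes 2 lower and 1 higher. The counts of the endothelial, fibroblast and epithelial lists were then 8, 3 and 1, as with that library. Of 14 tested proteases and protease inhibitors known to act on IGF-binding proteins, 9 passed as lower and 0 as higher at 48H against CTRL, and 0 passed at 24H. The median log2 fold change at 48H was -0.206. MMP2, a gelatinase that can cut IGFBPs, had the largest difference, with 17159 ± 1600 normalised counts in CTRL, 17794 ± 1040 at 24H and 7859 ± 287 at 48H (SD, n = 3; log2 fold change -1.13 ± 0.07, SE, edgeR adjusted p = 2.07e-06 at 48H). PLAT, the tissue plasminogen activator, was lower at 48H as well, with a log2 fold change of -0.57 (edgeR adjusted p = 2e-04). ADAM12 (-0.47, adjusted p = 0.0389) and BMP1 (-0.41, adjusted p = 0.000132) followed, and HTRA1, MMP14, CTSD and FURIN were lower by smaller amounts. PAPPA, the protease of IGFBP4, had 676 ± 46.3, 626 ± 32.3 and 747 ± 53.1 normalised counts in CTRL, TMAO 24H and TMAO 48H. It did not pass against CTRL and was higher at 48H than at 24H (log2 fold change 0.26, adjusted p = 0.0489), a call lost in all 6 fits that left out 1 library. Its inhibitors STC1 and STC2 did not pass, with log2 fold changes of 0.27 and -0.04 at 48H.

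Of 8 tested surface partners of IGF-binding proteins, 3 passed as lower at 48H, 0 as higher, and 0 at 24H, with a median log2 fold change of -0.128 at 48H. CD93, the endothelial receptor of IGFBP7, had 7875 ± 500 normalised counts in CTRL, 8207 ± 243 at 24H and 6566 ± 279 at 48H (SD, n = 3; log2 fold change -0.26 ± 0.05, SE, edgeR adjusted p = 0.00596 at 48H). CAV1, the main protein of caveolae, was lower (-0.32, adjusted p = 0.00109), and so was ITGA5, an integrin subunit that binds fibronectin (-0.31, adjusted p = 0.0079). LRP1, an endocytic receptor that takes up IGFBP3, was lower at 48H than at 24H (-0.25, adjusted p = 0.0455) and did not pass against CTRL in edgeR (-0.23, adjusted p = 0.0546), although it did in DESeq2 and in edgeR without TMAO 48H replicate 3. Its call between the time-points was kept in only 1 of 6 fits that left out 1 library. TMEM219, the reported cell-death receptor of IGFBP3, did not pass, with 1099 ± 50, 1103 ± 42.4 and 1076 ± 46.8 normalised counts in the 3 groups.

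Secreted relatives that share the IGFBP domain behaved differently from one another. Of 10 tested, 2 passed as lower at 24H, and at 48H 2 passed as lower and 1 as higher against CTRL, with medians of -0.103 and -0.045. The 2 at 24H were CTGF (log2 fold change -0.55, edgeR adjusted p = 0.003) and CYR61 (-0.54, adjusted p = 0.003), matricellular proteins of the CCN family, and neither passed without TMAO 24H replicate 2. CYR61 was higher than CTRL at 48H (0.44, adjusted p = 0.000751), and CTGF did not pass there in edgeR (0.18, adjusted p = 0.0618), whereas DESeq2 passed both as higher. The serine proteases HTRA3 (-0.64, adjusted p = 0.00675) and HTRA1 (-0.25, adjusted p = 0.00841) were lower at 48H. HTRA1 is counted in the protease list too.

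**Figure D4:**
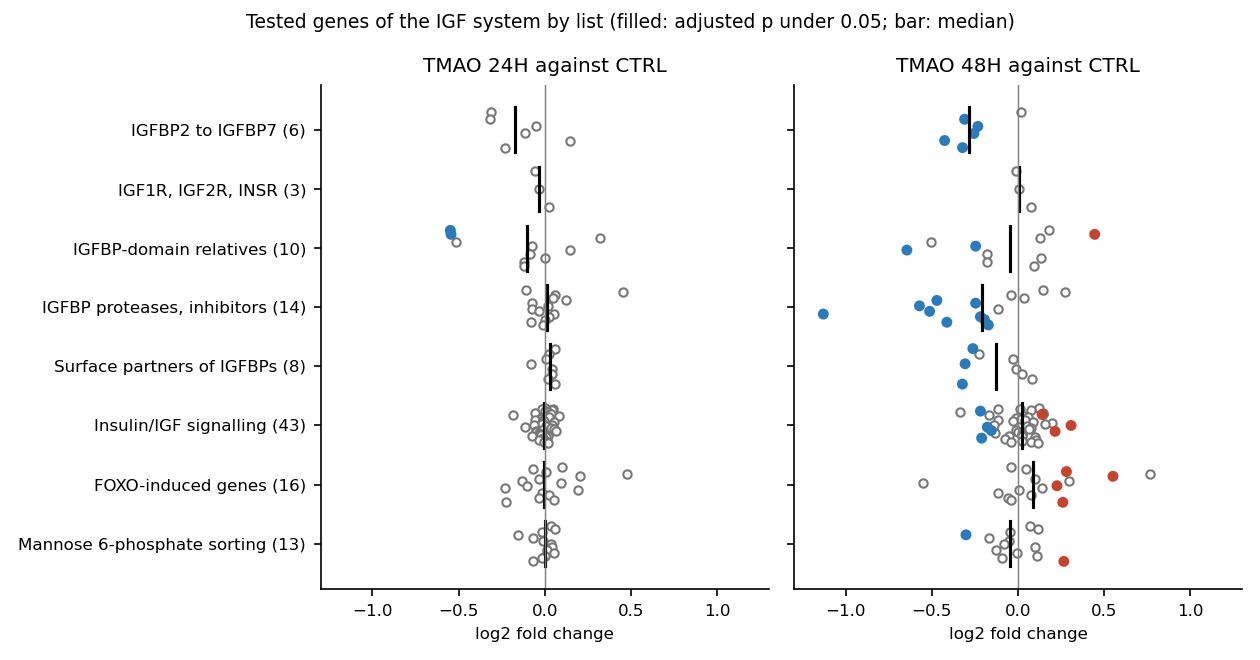
Log2 fold changes (horizontal axis) of the tested genes in 8 groups of the IGF system at 24H (left) and 48H (right) against CTRL, 1 circle per gene, filled where the edgeR adjusted p was under 0.05, with a bar at each group's median. At 24H only CTGF and CYR61 are filled, and at 48H the filled binding proteins, proteases and surface partners all lie below 0 while those of FOXO-induced genes lie above 0.

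In the cascade below the receptors, 4 of 43 tested genes passed as lower and 3 as higher at 48H, and 0 at 24H, with a median log2 fold change of 0.024 at 48H. Those that rose included PIK3R3, a regulatory subunit of PI3K (log2 fold change 0.31, edgeR adjusted p = 0.00462), and SOS2, an exchange factor of RAS (0.14, adjusted p = 0.0476). The 4 that fell were GRB10, an adaptor that restrains the insulin and IGF1 receptors (-0.22, adjusted p = 0.0378), EIF4EBP1, a repressor of cap-dependent translation (-0.21, adjusted p = 0.0423), the lipid phosphatase INPPL1 (-0.18, adjusted p = 0.0423) and the kinase AKT2 (-0.16, adjusted p = 0.0434). The share of this list that passed was 16.3%, beside 10.4% of all tested genes, and the 7 calls were 3 without CTRL replicate 1, 2 without CTRL replicate 2, 3 without CTRL replicate 3 and 2 without TMAO 48H replicate 2. SOS2 and EIF4EBP1 did not pass without TMAO 48H replicate 3. IRS1 and IRS2, the docking proteins of the receptor, did not pass, with log2 fold changes of 0.12 and -0.12 at 48H.

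Of 16 genes known to be induced by FOXO factors, which AKT holds out of the nucleus when IGF or insulin signals, 4 passed as higher at 48H, 0 as lower, and 0 at 24H. Their median log2 fold change at 48H was 0.089. By sign alone, 11 lay above 0 and 5 below, with FBXO32 the lowest (log2 fold change -0.55, edgeR adjusted p = 0.111). TXNIP, an inhibitor of thioredoxin that also limits glucose uptake, had 3101 ± 189 normalised counts in CTRL, 3569 ± 164 at 24H and 4542 ± 265 at 48H (SD, n = 3; log2 fold change 0.55 ± 0.06, SE, edgeR adjusted p = 7.51e-05 at 48H). SESN1, a stress-induced inhibitor of mTORC1, was higher by 0.28 on the log2 scale (adjusted p = 0.0194), CITED2, a transcriptional coregulator, by 0.26 (adjusted p = 0.00263) and GADD45A, a growth-arrest gene, by 0.23 (adjusted p = 0.00685). Other factors also induce these genes.

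IGF2R shares its sorting route with other proteins, and of 13 tested genes of mannose 6-phosphate sorting 1 passed as lower and 1 as higher at 48H, and 0 at 24H. NAGPA, which uncovers the mannose 6-phosphate tag, was lower (log2 fold change -0.30, edgeR adjusted p = 0.0258) and SORT1, a sorting receptor, was higher (0.27, adjusted p = 0.00137). Without CTRL replicate 2 or TMAO 48H replicate 2 only SORT1 passed. M6PR, the other mannose 6-phosphate receptor, did not pass (0.07, adjusted p = 0.33). None of the 3 IGF2 mRNA-binding proteins passed against CTRL in edgeR, and IGF2BP3 was lower at 48H than at 24H (-0.18, adjusted p = 0.0309), while 5 of 6 fits that left out 1 library passed none of the 3.

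Against CTRL at 48H, the share that passed was 30% of the tested fibroblast and mural markers. It was 16.7% of the tested epithelial and leukocyte markers, beside 10.4% of all tested genes. The 12 fibroblast and mural markers summed to 35965, 35195 and 31124 normalised counts in CTRL, 32805, 31361 and 33809 at 24H, and 20674, 21197 and 22683 at 48H, with COL1A1 the most abundant and with DCN and LUM at 2 counts or fewer in every library. Of the 10 tested, COL1A2 (log2 fold change -1.08, edgeR adjusted p = 5.95e-06) and COL1A1 (-0.67, adjusted p = 2.15e-05) were lower at 48H and ACTA2, a smooth muscle actin, was higher (0.74, adjusted p = 0.00194), and the other 7 did not pass. Without CTRL replicate 3 the count was 5, with COL3A1 and PDGFRB also lower. The 8 epithelial and leukocyte markers summed to 22100, 23746 and 21583 in CTRL, 21397, 20178 and 21435 at 24H, and 19808, 18935 and 17745 at 48H, with KRT18 the most abundant and the only 1 of 6 tested that passed (-0.24, adjusted p = 0.0131), a call lost without CTRL replicate 2 or TMAO 48H replicate 2. The part of these markers, and of the lower endothelial sum, in the lower binding proteins was not tested.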

How the data were processed

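RNA from 9 libraries of HMEC-1 (3 groups of 3) was sequenced as paired reads. The authors processed the reads with nf-core RNAseq version 3.6 and deposited estimated counts (expected counts) per gene symbol for 29740 genes, not normalised. The submitters' processing notes name Trim Galore, and the quantifier, genome build and annotation are not given in the sources used here. Samples were grouped by their labels.

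After rounding to whole numbers, counts were filtered with filterByExpr in edgeR 4.0.16 (R 4.3.3), which left 14740 genes. TMM factors were computed, and the 9 libraries entered a single glmQLFit model without covariates (legacy = FALSE), with Benjamini-Hochberg adjustment over all tested genes. Standard errors were derived from its F statistic. P-values are those of this model, because the smallest p of an exact permutation test in groups of 3 is 0.1. The biological coefficient of variation was 0.0744. Transcript lengths and GC content came from GENCODE release 29, with values for 89.8% of tested genes. Promoters came from the RefSeq table for GRCh38.p14, searched for 5 motifs on both strands. Library pairs within groups differed by more than sampling noise, with chi-square per degree of freedom of at least 3.75. The procedure was tested on simulated data.

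The members and lists were chosen with earlier results of these data known, so the lists give no independent support. Named genes were every member, the other genes of the family and up to 4 passing genes per list and comparison, largest change first, beside others named for their role. Some genes that the rule names are not reported here. The 3 most similar genes were sought among those with a mean normalised count of at least 50, after adding 0.5 before log2. Alternatives were DESeq2 1.42.0, RLE factors, the legacy edgeR fit, no filter on expression, a minimum of 10 counts per library, only the 2 groups compared, the replicate number as a block, removal of ribosomal RNA genes, a 1.4-fold threshold, a log2 threshold of 0.4, glmTreat, a correction for GC content and length, and leaving out each library. The log2 threshold, adding INS-IGF2 to IGF2, and leaving out each library for the lists, were chosen after seeing the data. RT-qPCR and metabolite data were not analysed here.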

Additional observations from a re-analysis of the deposited data

Results flagged for a closer look

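Levels at 48H and 24H differed for 3 of the binding proteins, by the edgeR test of the difference between the time-points (48H against 24H, log2 scale, adjusted p under 0.05). Without controls matched to each time, time with TMAO and time in culture cannot be told apart. The difference was 0.33 for IGFBP2, -0.18 for IGFBP4, which missed the threshold in 5 of 6 fits that left out 1 library, and -0.57 for IGFBP6. IGFBP6 stood apart in that its libraries lay above CTRL at 24H and below CTRL at 48H, and IGFBP2 was below CTRL at 24H only, although neither difference from CTRL at 24H passed. Both comparisons use the same CTRL libraries.

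Among the other genes of the IGF system levels were lower at 48H for MMP2 (-1.18), HTRA3 (-0.79), ADAM12 (-0.60), PLAT (-0.59), CAV1 (-0.38), CD93 (-0.32), LRP1 (-0.25), ITGA5 (-0.22), GRB10 (-0.22) and IGF2BP3 (-0.18). They were higher at 48H for CYR61 (0.99), CTGF (0.73), CITED2 (0.48), PIK3IP1 (0.43), KLF6 (0.37), TXNIP (0.35), GADD45A (0.33), SORT1 (0.33), PIK3R3 (0.27), SESN1 (0.27), PIK3CB (0.22) and CRIM1 (0.21). Of the cell type markers, COL1A2 (-1.06), COL1A1 (-0.59), ROBO4 (-0.34), KDR (-0.26), TIE1 (-0.22) and PECAM1 (-0.22) were lower and ACTA2 (0.54) and VWF (0.51) were higher at 48H than at 24H. These genes are not all that passed, and among the markers ERG and TEK (both -0.21) were lower too. Several of these calls depended on single libraries. With 1 library left out at a time, LRP1, ITGA5, GRB10, IGF2BP3, PIK3IP1, SESN1, PIK3CB and PECAM1 kept their call in 1 of 6 fits each, TIE1 in 3, and CRIM1, KDR and ACTA2 in 4. ADAM12 lost it only without TMAO 24H replicate 3, PIK3R3 only without TMAO 24H replicate 2 and IGFBP2 only without TMAO 24H replicate 1. The other genes named here kept it in all 6, except IGFBP4 and apart from ERG and TEK, for which these fits are not given. Groups of 3 libraries are too small to look for single outlying libraries by a formal rule, and none was sought.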

How the results depend on the processing

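The 9 genes gave 0 calls at 24H, 5 at 48H and 3 between the time-points, and RLE factors, the filters on low counts, the older quasi-likelihood fit, the fit of only the 2 groups compared and the removal of ribosomal RNA genes gave these same counts. DESeq2 passed 2 at 24H. Requiring a 1.4-fold change left 0 at 48H and 1 between the time-points (IGFBP6), a log2 fold change of at least 0.4 left 1 in each (IGFBP6), and glmTreat against a 1.4-fold change left 0 in both. Leaving out 1 library at a time gave 0 to 0 at 24H, 2 to 5 at 48H (2 without CTRL replicate 2) and 1 to 3 between the time-points (1 without TMAO 24H replicate 1). Replicate numbers did not pair the libraries, since deviations from group means correlated by -0.21 to 0.0872 in 9 same-numbered pairs and by -0.118 to 0.282 in 18 others. The replicate block gave 0, 4 and 2 calls, without IGFBP5 at 48H and IGFBP4 between the time-points, and changed no other call of a member. The GC and length correction gave 4 at 48H (without IGFBP4), and adding INS-IGF2 to IGF2 gave 6.

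Signs turned only for values near 0 or IGF2. The GC and length correction gave 0.00255 for IGFBP4 at 24H and -0.0208 for IGF2R at 48H, and adding INS-IGF2 gave -0.0736 for IGF2 at 24H. With 1 library left out, log2 fold changes at 24H ranged from -0.0948 to 0.0453 for IGF2R, from -0.0146 to 1.36 for IGF2 and from -0.261 to 0.137 for IGF2 with INS-IGF2. At 48H they ranged from -0.0471 to 0.0347 for IGF1R, from -0.0295 to 0.0698 for IGFBP2, from -1.23 to 0.152 for IGF2 and from -0.0629 to 0.0855 for IGF2R. Between the time-points they ranged from -0.0466 to 0.0588 for IGFBP3 and from -0.00147 to 0.0974 for IGF2R. The causes were not tested.

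Over all genes, 14 passed at 24H (55 with DESeq2, 22 with only the 2 groups compared, 1 with the block, 7 at 1.4-fold, 0 with glmTreat, 0 to 12 with a library left out). At 48H 1537 passed (981 with only the 2 groups compared, 948 with the block, 265 at 1.4-fold, 374 at a log2 fold change of 0.4, 23 with glmTreat, 700 to 1595 with a library left out), and between the time-points 1110 (731 with the block, 252 at 1.4-fold, 368 at a log2 fold change of 0.4, 50 with glmTreat, 558 to 1052). DESeq2 passed 1 endothelial marker (VWF) and 2 FOXO-induced genes (KLF6 and CITED2) at 24H, where edgeR passed 0, and KRT18 between the time-points. At 48H DESeq2 also passed CTGF as higher, LRP1 as lower and PIK3CB in place of SOS2. DESeq2 gave no adjusted p for IGF2, whose counts of 26 or fewer limit what can be detected.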
